A study of Homo sapiens with 9 samples.

Results

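The L1 and NCAM neural adhesion molecules are cell-surface proteins of the immunoglobulin superfamily, and 9 of their genes (L1CAM, NRCAM, NFASC, CHL1, NCAM1, NCAM2, CNTN1, CNTN2 and ALCAM) were followed here by gene symbol among the 25084 genes of the table. All 9 symbols were present. RNA had been sequenced from LAN5, an established human neuroblastoma line with amplified MYCN, in 9 libraries, 3 for each of 3 small interfering RNAs. The first group received a control (siCTR), another an siRNA directed at MYCN (siMYCN, siMYCN_2 in the labels) and the third an siRNA directed at HAND2 (siHAND2, siHAND2_3 in the labels), all introduced by Nucleofector electroporation into cells grown in the same serum-containing medium and collected 72 h later. MYCN and HAND2 encode helix-loop-helix transcription factors, and the study set out to find the genes under their control. Each target had 1 siRNA label, so effects of that siRNA on other transcripts and effects of its target cannot be told apart. Nothing in the labels says that the 3 libraries of a group came from separate cultures, so the p-values measure only the spread between these libraries, which may be technical.

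L1CAM, NRCAM, NFASC (neurofascin) and CHL1 form the L1 family, transmembrane proteins with immunoglobulin and fibronectin type III domains whose short cytoplasmic tails bind ankyrins and so hold the membrane to the spectrin skeleton. NCAM1 and NCAM2 bind like molecules on neighbouring cells, and NCAM1 is the main carrier of polysialic acid, a long sugar chain that loosens its contacts. CNTN1 and CNTN2 (contactins) have no membrane-spanning part and are tethered by a lipid anchor beside L1-family proteins or contactin-associated proteins. ALCAM (CD166) is a related molecule of growing axons that binds itself and the lymphocyte receptor CD6. In neurons these proteins guide axon growth, bundling and the assembly of nodes of Ranvier, and neuroblastoma cells, which derive from the sympathoadrenal neural crest, are widely stained for NCAM1 and L1CAM.

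Values were CPM, reads scaled to the library total, and the smallest steps between values put each library at 21.1 to 32.7 M reads, so that counting error alone gave a coefficient of variation of 17.5% to 21.8% at 1 CPM. Both siRNAs went with less of their own target in 3 of 3 libraries. MYCN, the first target, measured 1786 to 1894 CPM (siCTR), 1245 to 1338 (siMYCN) and 877 to 969 (siHAND2). HAND2, the second, measured 489 to 516 CPM (siCTR), 557 to 588 (siMYCN) and 267 to 280.4 (siHAND2). MYCN fell by 0.51 on the log2 scale in siMYCN (limma adjusted p = 7.15e-07) and HAND2 by 0.88 in siHAND2 (adjusted p = 1.25e-10). The siHAND2 libraries thus held less MYCN than the siMYCN libraries, and the siMYCN libraries held more HAND2 than the control. All 8 noradrenergic neuroblast markers on the list (among them TH, DBH, CHGA and CHGB) passed the filter (1 CPM or more in 3 libraries or more), TH only at 1.18 to 4.42 CPM. None of the 5 Schwann and glial markers present (among them SOX10 and S100B) and none of the 4 endothelial and blood markers (PECAM1, CDH5, PTPRC and CD68) passed it.

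Promoter sequences are shown for 4 genes, those with a RefSeq start within 12 bases of the start in the table and an upstream window free of the exons of the gene's own annotated transcripts. They are NFASC and CNTN2, which are neighbours and moved alike, ALCAM, which moved in opposite directions in the knockdowns, and CHL1, which rose in both. Each is the 250 bases before the RefSeq start on GRCh38.p14, all on the plus strand, at chr1:204828402-204828651 (NFASC), chr1:205042699-205042948 (CNTN2), chr3:105366659-105366908 (ALCAM) and chr3:196513-196762 (CHL1, within the opposite-strand gene CHL1-AS2). Capitals mark the E-box letters CANNTG on either strand, the class of site that helix-loop-helix factors bind.
NFASC: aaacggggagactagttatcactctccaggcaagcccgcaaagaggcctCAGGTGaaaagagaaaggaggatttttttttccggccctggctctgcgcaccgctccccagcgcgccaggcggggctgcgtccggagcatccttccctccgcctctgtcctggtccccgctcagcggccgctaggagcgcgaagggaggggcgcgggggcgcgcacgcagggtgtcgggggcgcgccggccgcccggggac
CNTN2: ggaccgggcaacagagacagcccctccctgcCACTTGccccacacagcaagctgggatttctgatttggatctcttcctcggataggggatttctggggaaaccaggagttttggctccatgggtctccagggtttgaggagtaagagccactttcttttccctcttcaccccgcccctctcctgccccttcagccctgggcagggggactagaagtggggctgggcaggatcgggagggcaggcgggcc
ALCAM: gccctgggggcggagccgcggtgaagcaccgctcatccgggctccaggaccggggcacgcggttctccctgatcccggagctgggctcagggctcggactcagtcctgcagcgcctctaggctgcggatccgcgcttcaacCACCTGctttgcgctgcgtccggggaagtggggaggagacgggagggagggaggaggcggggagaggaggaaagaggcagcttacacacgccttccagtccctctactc
CHL1: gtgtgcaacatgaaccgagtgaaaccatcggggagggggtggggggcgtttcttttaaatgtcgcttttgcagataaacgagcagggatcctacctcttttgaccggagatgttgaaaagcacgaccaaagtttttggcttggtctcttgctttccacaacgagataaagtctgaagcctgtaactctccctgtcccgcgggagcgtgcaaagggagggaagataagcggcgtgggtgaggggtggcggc
The windows of NFASC, CNTN2 and ALCAM held 1 CANNTG each and that of CHL1 held 0. RefSeq gave 16 such windows for 8 of the 9 genes, since several genes have more than 1 start, and 11 of them held at least 1 CANNTG, against 61.8% of all 35116 promoter windows of the same length. The letters CACGTG, the E-box that MYC proteins and MAX prefer and a special case of CANNTG, were in 0 of the 16 windows and in 6.34% of all windows. Several windows lay far from the start in the table. Those of CNTN1 (135745 and 215918 bases), NCAM2 (148753) and L1CAM (10159 and 10229) all did. The 0 therefore does not cover the sequence at the table starts of these genes. CATCTG (or CAGATG on the other strand), a form that HAND proteins with E-proteins can bind and also a case of CANNTG, was in 3 of the 16 windows, 2 overlapping windows of L1CAM and 1 of NRCAM, and in 12.2% of all windows. These 3 windows belong to starts inside the genes, 10159 and 10229 bases (L1CAM) and 213332 bases (NRCAM) from the start in the table. The NRCAM window whose start lay 281 bases from it held no CATCTG. A match is a match of letters only, and binding was not measured.

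In control cells the 9 genes spanned a wide range of levels when scaled by transcript length. With CPM divided by the length of the canonical GENCODE transcript, ALCAM stood at 117 ± 2.93 CPM per kb (SD, n = 3 libraries), NCAM1 at 63.2 ± 3.06, NRCAM at 23.1 ± 0.456, CNTN1 at 22.2 ± 2.28 and L1CAM at 16.5 ± 0.633. The lower genes were CNTN2 at 8.17 ± 0.269 CPM per kb, NFASC at 5.08 ± 0.125, NCAM2 at 1.23 ± 0.052 and CHL1 at 0.0831 ± 0.0225. NRCAM and CNTN1 overlapped between libraries (22.6 to 23.5 and 19.7 to 24.1 CPM per kb), so their order was within the replicate spread, while every other pair of neighbours in this order was apart. Among the 9 genes ALCAM and NCAM1 were thus the highest, and the L1-family gene CHL1 was barely detected.

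The order changed in the middle of the scale in the knockdowns. In siMYCN, L1CAM was the third highest at 31.98 ± 0.595 CPM per kb, just above NRCAM at 29.95 ± 1.22, with no overlap of the libraries. That step depends on the length used, because with the merged length of all annotated exons NRCAM stood at 25.2 CPM per kb and L1CAM at 22.6. In siHAND2, L1CAM was again the third highest, at 19.3 ± 1.49 CPM per kb, above CNTN1 at 13.7 ± 0.796 and NRCAM at 12.4 ± 1.25, and the last of these overlapped each other. With either length ALCAM and NCAM1 came first, and CNTN2, NFASC, NCAM2 and CHL1 kept the last 4 places, in all 3 groups.

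**Figure D1:**
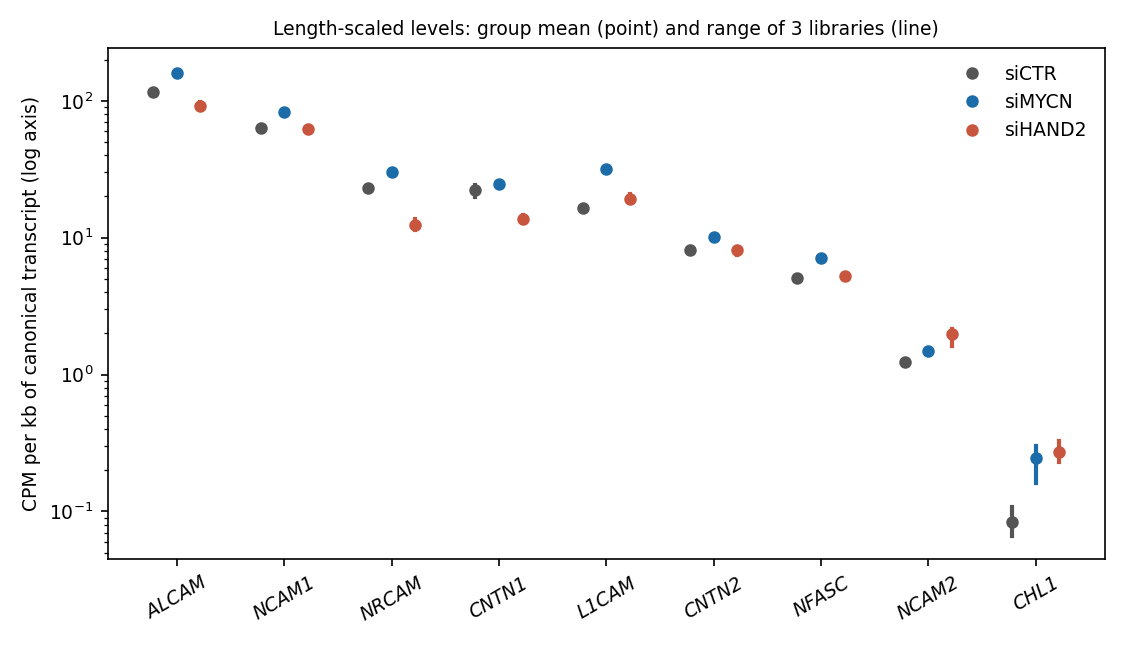
CPM per kb of canonical transcript on a log axis for the 9 adhesion genes, ordered by the siCTR mean; points are group means and lines the range of 3 libraries in siCTR (grey), siMYCN (blue) and siHAND2 (red). ALCAM is the highest gene in each group (117 CPM per kb in siCTR) and CHL1 the lowest (0.0831 CPM per kb in siCTR), and L1CAM stands above NRCAM in both knockdowns, in siMYCN only with this length and not with the merged exon length.

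Which adhesion transcripts differ when MYCN is lowered was read from siMYCN against siCTR. Of the 9 genes, 8 rose past an adjusted p of 0.05 and none fell, by limma on log2(CPM + 1) with Benjamini-Hochberg adjustment over 14495 genes. Of all genes tested, 35.9% were called, 24.5% higher and 11.4% lower. The median log2 fold change of the 9 genes was 0.39, against 0.06 over all genes tested, and the 3 siMYCN libraries lay above the 3 siCTR libraries in all 9 genes, where groups did not overlap in 49.5% of all genes and siMYCN was the higher in 33.4%. One of the 9, CHL1, was under 1 CPM in every siCTR library. It entered the test only through the knockdown groups where it is high, which favoured its rise and its lack of overlap with siCTR. The other 8 genes were above 1 CPM in every library. With CPM as deposited 68.3% of all called genes were higher in siMYCN, 51.1% once rescaled by median ratios and 49.3% once quantile-normalized. The 9 adhesion genes kept their sign under both rescalings.

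In siHAND2 both factors were lower than in siCTR, HAND2 at 54.2% and MYCN at 49.6% of the siCTR mean. Changes that go with HAND2 and changes that go with MYCN cannot be told apart there. The comparison of siHAND2 with siCTR divided the genes. L1CAM, NCAM2 and CHL1 rose, NRCAM, CNTN1 and ALCAM fell, and NFASC, NCAM1 and CNTN2 did not pass the test (limma, Benjamini-Hochberg adjusted p of 0.05). CHL1 entered this test too only through the knockdown groups where it is high, which favoured both its rise and its lack of overlap with siCTR. Among all genes 29.9% were called, 18.1% higher and 11.8% lower, and the share of calls that were higher went from 60.6% as deposited to 47.0% with median ratios and 47.8% with quantile normalization. The direct comparison of siHAND2 with siMYCN tested whether the responses differed. It called 8 of the 9 genes, 7 lower and 1 higher in siHAND2, where 26.9% of all genes were called, 15.5% lower and 11.4% higher. The siHAND2 libraries did not overlap siCTR in 7 of the 9 genes (42.4% of all genes, 25.8% higher and 16.6% lower). L1CAM, NCAM2, CHL1 and NFASC lay above siCTR, and NRCAM, CNTN1 and ALCAM below. NFASC, which was not called, was only just apart (lowest siHAND2 library 53.497 CPM, highest siCTR library 53.494). The siHAND2 libraries did not overlap siMYCN in 8 of the 9 (38.7% of all genes, 17.1% higher and 21.6% lower). Both comparisons against siCTR share the same control libraries.

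**Figure D2:**
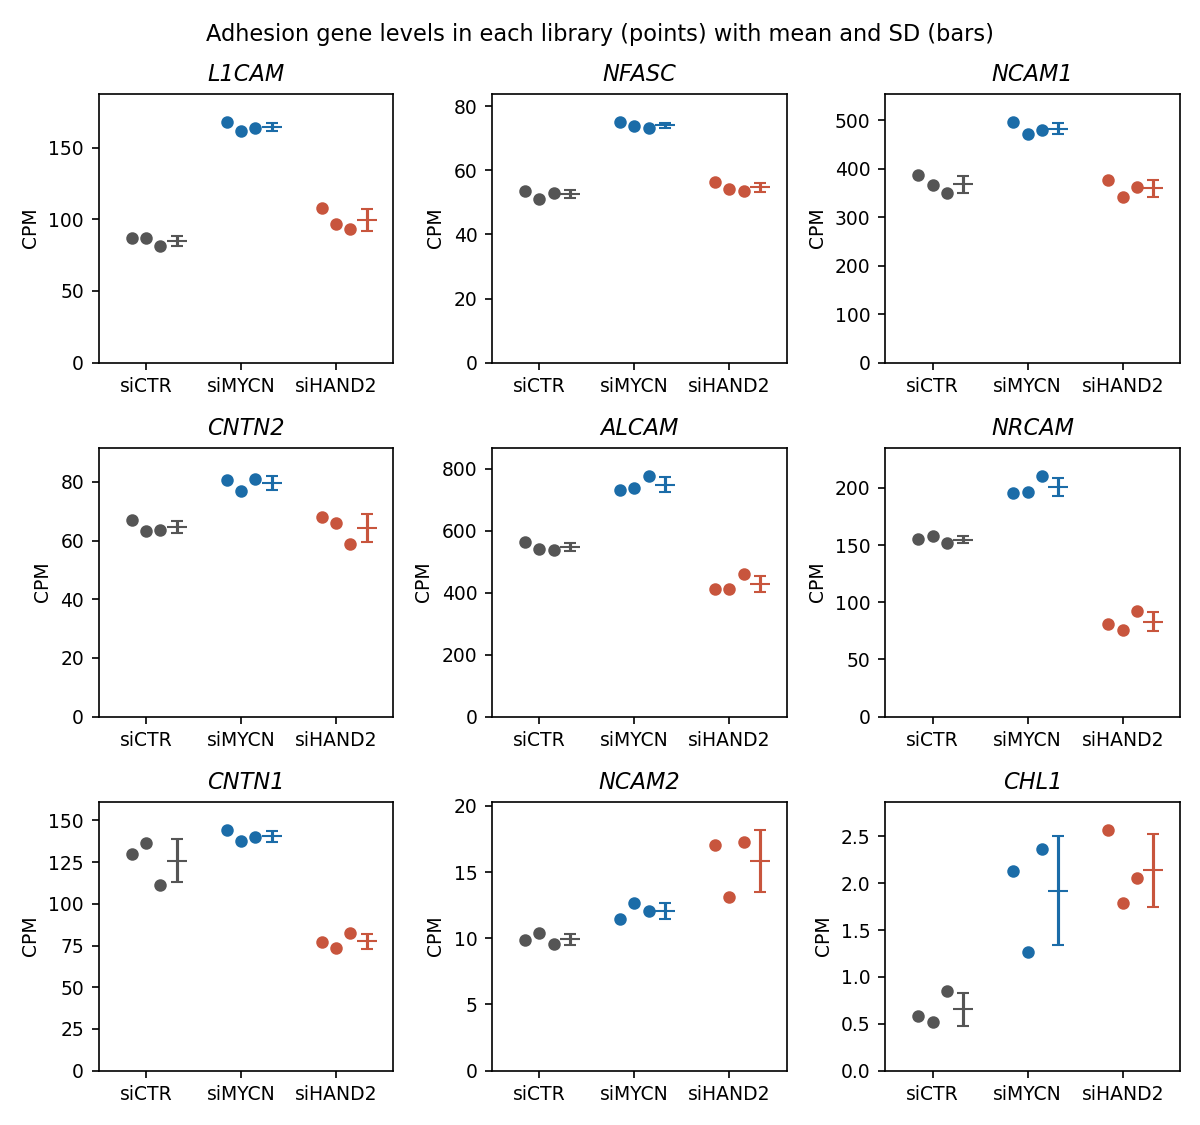
CPM of each adhesion gene in each library (points) with the group mean and SD (bars, n = 3 libraries) for siCTR, siMYCN and siHAND2; each panel has its own vertical axis from 0. L1CAM, NFASC, NCAM1 and CNTN2 are highest in siMYCN, NRCAM, CNTN1 and ALCAM are lowest in siHAND2, and NCAM2 and CHL1 are lowest in siCTR.

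Within the L1 family, L1CAM showed the largest called rise of the genes that were well detected in all groups. L1CAM (chromosome X, 153861514 to 153886173, GRCh38, minus strand) measured 86.7, 86.7 and 81.0 CPM (siCTR), 167.6, 162 and 164 (siMYCN) and 108, 96.7 and 93.1 (siHAND2). Every siMYCN library was far above the control, and the siHAND2 libraries lay just above the control with no overlap. The siMYCN mean was 1.94-fold that of siCTR, a log2 fold change of 0.95 (standard error, SE, 0.05; limma adjusted p = 7.75e-09), which ranked 42nd among the 3556 genes that were called higher. In siHAND2 L1CAM differed by 0.22 (SE 0.05, adjusted p = 0.00416), and the knockdowns differed from each other by -0.72 (adjusted p = 1.78e-08). The genes with the most similar profile over the 9 libraries, among 11193 genes averaging 5 CPM or more, were STMN4 (Pearson r = 0.998), GABBR1 (0.995) and SYT11 (0.993). These correlations are descriptions only, since the 9 libraries form 3 groups and largely trace the group means.

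NFASC (chromosome 1, 204828651 to 205022822, plus strand), which encodes the neurofascins of nodes and axon initial segments, measured 53.5, 51.1 and 53.1 CPM (siCTR), 74.98, 73.9 and 73.2 (siMYCN) and 56.4, 54.2 and 53.5 (siHAND2). The siMYCN libraries stood far above both other groups, which nearly touched. NFASC rose by 0.49 in siMYCN (limma adjusted p = 6.48e-07, SE 0.04). In siHAND2 its difference was 0.06, with a 95% interval from -0.04 to 0.15 (adjusted p = 0.361), and the knockdowns differed by -0.43 (adjusted p = 1.52e-06). CNTN2 begins 20.1 kb after the end of NFASC on the same strand, with no table gene between them.

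NRCAM (chromosome 7, 108147623 to 108456717, minus strand), the L1-family member that clusters sodium channels at nodes together with neurofascin, measured 155, 158 and 152 CPM (siCTR), 196, 196 and 210.1 (siMYCN) and 81.2, 75.6 and 92.1 (siHAND2). The 3 groups did not overlap, with siMYCN above and siHAND2 far below the control. NRCAM rose by 0.37 in siMYCN (limma adjusted p = 1.24e-04, SE 0.06) and fell by 0.90 on the log2 scale in siHAND2 (adjusted p = 7.40e-09), to 53.6% of the siCTR mean. The direct difference of -1.27 (SE 0.06, adjusted p = 7.20e-11) was the largest of the 9 genes. LGR5 (r = 0.995), DLX5 (0.995) and FBP1 (0.995) had the most similar profiles over the 9 libraries.

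CHL1 (chromosome 3, 196763 to 409417, plus strand), the close homologue of L1CAM, measured 0.581, 0.524 and 0.854 CPM (siCTR), 2.13, 1.27 and 2.36 (siMYCN) and 2.57, 1.79 and 2.05 (siHAND2). By the depth of the libraries these stand for about 14.0 to 19.0 reads in siCTR, 33.0 to 69.0 in siMYCN and 45.0 to 78.0 in siHAND2. All 6 knockdown libraries were above all 3 controls, and the knockdowns overlapped. CHL1 passed the filter only through these knockdown libraries, so its tests against siCTR were bound to favour a rise. The mean was 2.94-fold that of siCTR in siMYCN and 3.27-fold in siHAND2, while the log2 fold changes of log2(CPM + 1), which understate such a low gene, were 0.81 (limma adjusted p = 7.08e-04, SE 0.15) and 0.92 (adjusted p = 2.61e-04). With a pseudocount of 0.1 they were 1.40 and 1.58, and with a pseudocount of 5 they were 0.29 and 0.34. The knockdowns differed by 0.12 with a 95% interval from -0.21 to 0.44 (adjusted p = 0.623). NCOA6 (r = 0.986), GPR27 (0.974) and AL096711.2 (0.972) were nearest in profile.

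In the NCAM pair, the larger change was in siMYCN for NCAM1 and in siHAND2 for NCAM2. NCAM1 (chromosome 11, 112961247 to 113278436, plus strand), the gene of CD56, measured 386, 366 and 351 CPM (siCTR), 495, 472 and 479.6 (siMYCN) and 376, 341 and 363 (siHAND2). Only the siMYCN libraries stood apart. NCAM1 rose by 0.39 in siMYCN (limma adjusted p = 8.38e-06, SE 0.05). In siHAND2 the value was -0.03 with a 95% interval from -0.13 to 0.07 (adjusted p = 0.665), and the knockdowns differed by -0.42 (adjusted p = 3.19e-06). Genes on the opposite strand overlap NCAM1 in the table, at 4.12 (NCAM1-AS1), 2.59 (AP000802.1) and 0.899 (AP000880.1) mean CPM, and use of strand in the counting is not given in the sources used here.

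NCAM2 (chromosome 21, 20998409 to 21543329, plus strand), its paralogue best known from olfactory axons, measured 9.87, 10.4 and 9.54 CPM (siCTR), 11.4, 12.7 and 12.1 (siMYCN) and 17.0, 13.1 and 17.3 (siHAND2). The order was control, siMYCN, siHAND2 without overlap, with siHAND2 replicate 2 close to the siMYCN libraries. NCAM2 rose by 0.61 in siHAND2 (limma adjusted p = 8.80e-05, SE 0.09), 1.59-fold over the control mean. Its rise in siMYCN was 0.26 (adjusted p = 0.038), a call lost in 9 of 18 alternatives, among them both rescalings (0.20 and 0.18) and the omission of any 1 siCTR library or of siMYCN replicate 2 or 3 (0.22 to 0.28). The difference between the knockdowns was 0.36 (SE 0.09, adjusted p = 0.00789). CPE (r = 0.981), CD200 (0.972) and FUNDC1 (0.971) had the most similar profiles.

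Of the contactins, CNTN1 (chromosome 12, 40692439 to 41072415, plus strand) measured 130, 137 and 112 CPM (siCTR), 144, 138 and 140.1 (siMYCN) and 77.1, 73.6 and 82.5 (siHAND2). The siHAND2 libraries were far below the rest, while the lowest siMYCN library was only just above the highest control. CNTN1 fell by 0.69 on the log2 scale in siHAND2 (limma adjusted p = 4.11e-07, SE 0.06), to 61.7% of the siCTR mean, and the knockdowns differed by -0.85 (adjusted p = 2.63e-08). In siMYCN its value was 0.16 with a 95% interval from 0.03 to 0.29, not past the threshold (adjusted p = 0.055). It passed in 5 of 18 alternatives, among them without siCTR replicate 2 (0.22, adjusted p = 0.0196), and was 0.08 without siCTR replicate 3. SERINC5 (r = 0.994), DNAJC6 (0.993) and DBH (0.987), the noradrenergic marker that makes noradrenaline, were the nearest profiles.

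CNTN2 (chromosome 1, 205042937 to 205078289, plus strand), also called TAG-1 and found on early axons, measured 67.1, 63.3 and 63.6 CPM (siCTR), 80.7, 76.8 and 81.2 (siMYCN) and 67.9, 66.1 and 58.9 (siHAND2). As for its neighbour NFASC, only the siMYCN libraries stood apart. CNTN2 rose by 0.29 in siMYCN (limma adjusted p = 5.10e-04, SE 0.05). In siHAND2 its value was -0.01 with a 95% interval from -0.13 to 0.10 (adjusted p = 0.903), and the knockdowns differed by -0.31 (adjusted p = 4.36e-04).

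ALCAM (chromosome 3, 105366909 to 105576900, plus strand), the most abundant of the 9 genes, measured 564, 541 and 539 CPM (siCTR), 732, 739 and 776 (siMYCN) and 414, 413 and 459 (siHAND2). The 3 groups were apart, with siMYCN above and siHAND2 below the control. ALCAM rose by 0.45 in siMYCN (limma adjusted p = 2.15e-06, SE 0.05) and fell by 0.35 on the log2 scale in siHAND2 (adjusted p = 2.45e-05), and the knockdowns differed by -0.80 (adjusted p = 1.11e-09). ALCAM and NRCAM were the 2 of the 9 genes called higher in siMYCN and lower in siHAND2, a combination held by 285 genes or 1.97% of those tested. ITM2B (r = 0.998), CHRNA7 (0.996) and CDC42EP3 (0.996) were nearest to it in profile.

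**Figure D3:**
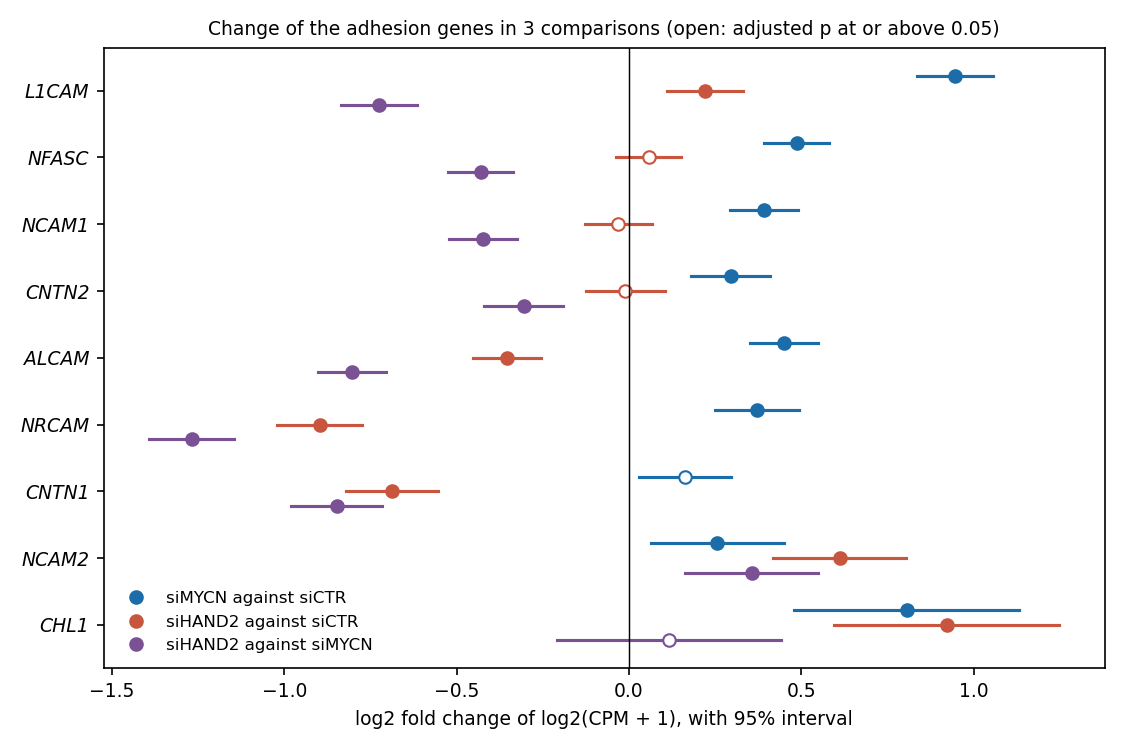
Log2 fold change of log2(CPM + 1) for the 9 adhesion genes with 95% intervals from limma, for siMYCN against siCTR (blue), siHAND2 against siCTR (red) and siHAND2 against siMYCN (purple); open points did not pass an adjusted p of 0.05. The blue points lie right of 0 for each gene, up to 0.95 for L1CAM, while the red points run from -0.90 (NRCAM) to 0.92 (CHL1).

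Markers of other cell states moved in the same libraries. Of the 8 fibroblast and mesenchymal markers, 6 passed the filter, 5 of these rose in siMYCN and all 6 in siHAND2 (limma, adjusted p of 0.05), where 24.5% and 18.1% of all genes were called higher. DCN, one of the 6, was at 0.374 to 0.522 CPM in siCTR and passed the filter only through the knockdown libraries, which favoured its rise. It measured 1.11 to 1.61 CPM in siMYCN and 10.2 to 11.7 CPM in siHAND2, log2 fold changes of 0.68 and 3.07. Either knockdown group alone was enough to pass the filter, so neither rise was fixed by it. The summed level of the 8 markers was 689 to 741 CPM (siCTR), 928 to 973 (siMYCN) and 1337 to 1507 (siHAND2), most of it VIM, while COL1A1 and PRRX1 stayed under 1 CPM in every library. Of the 8 noradrenergic markers, 6 rose and 0 fell in siMYCN (24.5% and 11.4% of all genes). In siHAND2 SCG2 and STMN2 rose, by 1.61 and 0.95, and DBH and TH fell, by 1.01 and 0.70 on the log2 scale (18.1% and 11.8% of all genes were called higher and lower). The list had summed levels of 1586 to 1720 CPM (siCTR), 2101 to 2204 (siMYCN) and 1924 to 2142 (siHAND2). The part of either marker set in the adhesion results was not tested. In these bulk libraries, fewer cells of a type and less RNA per cell cannot be told apart.

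The partner genes of the adhesion molecules were described by 5 lists. Among 12 ankyrins, spectrins and other linkers of the membrane to the cytoskeleton, 10 rose and 0 fell in siMYCN, where 24.5% of all genes were called higher and 11.4% lower, with a median log2 fold change of 0.34 against 0.06 over all genes. In siHAND2 4 rose, 2 fell and 6 did not pass, where 18.1% of all genes were called higher and 11.8% lower, with a median of 0.05 against 0.04. ANK3 (ankyrin-G), which binds L1-family tails at initial segments and nodes, went from 12.9 ± 0.77 CPM in siCTR to 19.97 ± 1.38 with siMYCN and 24.3 ± 1.22 with siHAND2 (n = 3, SD). The log2 fold changes were 0.59 and 0.86 (limma adjusted p = 7.21e-06 and 9.62e-08).

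DCX (doublecortin), a microtubule protein of migrating neurons that also binds neurofascin, measured 101, 98.6 and 98.5 CPM (siCTR), 181, 183 and 214 (siMYCN) and 77.9, 85.6 and 86.98 (siHAND2). It rose by 0.94 in siMYCN and fell by 0.25 on the log2 scale in siHAND2, the same directions as ALCAM and NRCAM. EZR (ezrin), a linker that binds the L1 tail, likewise rose by 0.31 in siMYCN and fell by 0.37 on the log2 scale in siHAND2. ANK1 rose by 0.47 and 0.37. The spectrin genes SPTAN1, SPTBN1 and SPTBN4 rose in siMYCN by 0.42, 0.37 and 0.31, and their values of 0.06, -0.03 and 0.02 in siHAND2 did not pass. They were picked after their values were seen and do not stand for all spectrin genes of the list.

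For the enzymes that modify the adhesion molecules, 5 of 7 rose in siMYCN and 2 of 7 in siHAND2, and none fell, against 24.5% and 18.1% of all genes called higher. The medians were 0.19 and 0.05, against 0.06 and 0.04 over all genes, so that the siHAND2 values lay near those of all genes. The polysialyltransferases that act on NCAM1, ST8SIA2 and ST8SIA4, each passed the test in a different knockdown. ST8SIA2 measured 17.4, 19.8 and 19.6 CPM (siCTR), 29.2, 28.3 and 30.1 (siMYCN) and 19.8, 18.9 and 19.6 (siHAND2). ST8SIA4 measured 19.1, 20.3 and 19.6 CPM (siCTR), 19.6, 23.2 and 21.1 (siMYCN) and 42.8, 40.7 and 44.2 (siHAND2). ST8SIA2 thus stood apart in siMYCN and ST8SIA4 in siHAND2. The rise of ST8SIA2 was 0.60 in siMYCN, and its value of 0.04 in siHAND2 did not pass and changed sign under both rescalings. ST8SIA4 rose by 1.07 in siHAND2 and its value of 0.11 in siMYCN did not pass. The direct comparison gave -0.56 for ST8SIA2 and 0.97 for ST8SIA4 (limma adjusted p = 3.42e-06 and 6.88e-09). ST8SIA3, a related enzyme, rose in both (0.21 and 0.32).

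Only 6 of the 9 other contactins and contactin-associated proteins passed the filter. In siMYCN 2 passed the test, where 35.9% of all genes did (CNTN5 rose by 0.60 and CNTNAP1 by 0.38), and 4 passed it in 6 alternatives, among them the replicate block and the omission of siMYCN replicate 3, siHAND2 replicate 2 or siHAND2 replicate 3. In siHAND2 CNTNAP1, the partner of CNTN1 at paranodes, rose by 0.33, CNTNAP4 fell by 0.45 and CNTNAP5 by 0.46 on the log2 scale, so that 3 of 6 passed where 29.9% of all genes did. CNTNAP5 was at 0.806 to 1.95 CPM over the 9 libraries and at 1 CPM or more throughout siCTR alone, and its call was lost with no filter, with no intensity trend and without siCTR replicate 1 or 2 (-0.40 and -0.44) or siHAND2 replicate 2 or 3 (-0.44 and -0.45). CNTN6 and CNTN3 stayed under 1 CPM in every library.

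Among 19 ligands, coreceptors and signalling partners, 14 were tested. Of these 8 rose and 1 fell in siMYCN (median 0.26), and 4 rose and 1 fell in siHAND2 (median 0.09). Of all genes 24.5% were called higher and 11.4% lower in siMYCN, and 18.1% and 11.8% in siHAND2, so that the siHAND2 counts lay near the background. The matrix proteins TNR and TNC, which bind contactins, had the largest changes in siMYCN. TNR (tenascin-R) measured 20.9, 18.2 and 20.7 CPM (siCTR), 41.1, 40.95 and 46.9 (siMYCN) and 20.9, 17.7 and 18.3 (siHAND2), so that only siMYCN stood apart (log2 fold changes of 1.07 and -0.07). TNC (tenascin-C) rose from 142 ± 7.95 CPM to 298 ± 9.77 in siMYCN and 190 ± 20.3 in siHAND2 (1.07 and 0.41). NCAN (neurocan), a proteoglycan that binds L1CAM and NCAM1, rose by 0.56 in siHAND2 and by 0.19 in siMYCN, a call lost in 7 alternatives. NRP2, a semaphorin coreceptor, fell by 0.27 and 0.23 on the log2 scale.

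Of 17 other immunoglobulin-superfamily adhesion genes, 12 were tested. In siMYCN 6 rose, 2 fell and 4 did not pass (median 0.27), and in siHAND2 6 rose, 4 fell and 2 did not pass (median 0.11), where 35.9% and 29.9% of all genes were called. These counts hold 3 genes whose call the filter bears on, namely NTM, ROBO2 and DSCAML1. CADM3 and CADM4, synaptic and axon-glia adhesion molecules, rose by 0.79 and 0.67 in siMYCN and by 0.49 and 0.53 in siHAND2. NEGR1, a lipid-anchored molecule of the IgLON group, measured 17.4, 18.0 and 18.0 CPM (siCTR), 12.97, 11.5 and 12.0 (siMYCN) and 40.4, 41.1 and 43.1 (siHAND2), and thus fell by 0.52 on the log2 scale in siMYCN and rose by 1.18 in siHAND2. The axon guidance receptor ROBO1 also fell in siMYCN (-0.20) and rose in siHAND2 (0.27). ROBO2 rose by 1.28 in siHAND2, from 0.703 to 0.854 CPM in siCTR to 3.03 to 3.65 CPM, and passed the filter only through the siHAND2 libraries, so that this rise was fixed by the filter. NTM, at 0.749 to 0.917 CPM in siCTR, passed the filter only through siMYCN (1.47 to 2.03 CPM), so its rise there was fixed by the filter, and it fell by 0.52 on the log2 scale in siHAND2. DSCAML1 fell by 0.75 on the log2 scale in siHAND2, where it was at 0.558 to 0.673 CPM, and passed the filter only through siCTR and siMYCN (1.31 to 2.53 CPM). At such low levels the log2(CPM + 1) scale understates the change.

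**Figure D4:**
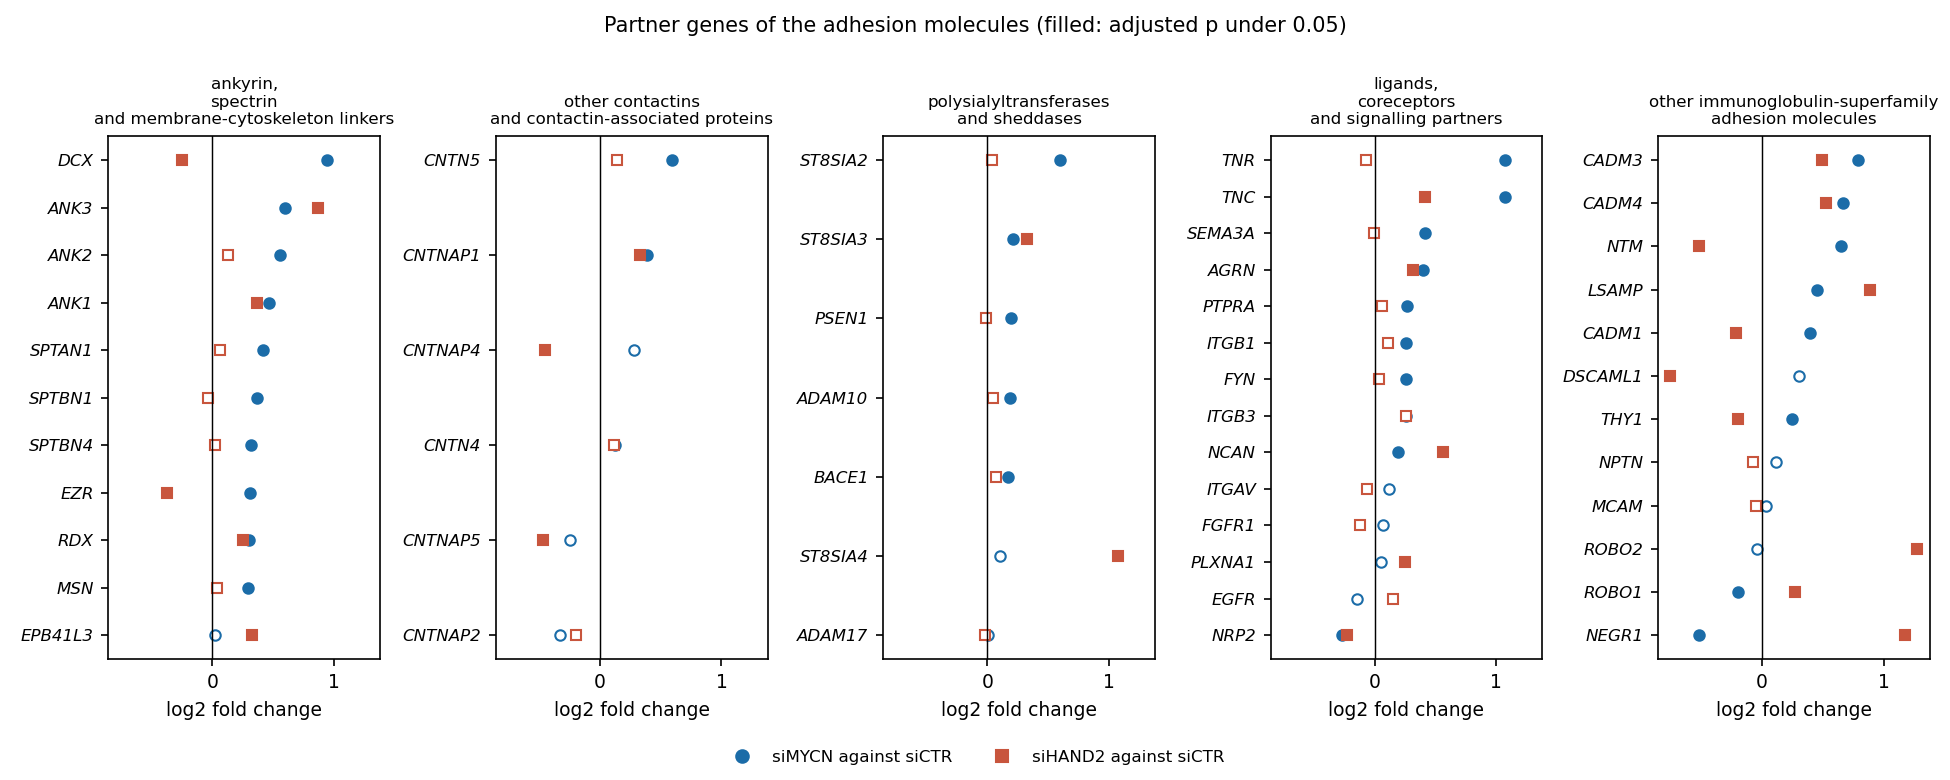
Log2 fold changes of log2(CPM + 1) for tested genes of the 5 partner lists, 1 linker left out, in siMYCN against siCTR (blue circles) and siHAND2 against siCTR (red squares); filled points passed an adjusted p of 0.05. Ankyrins, spectrins and other linkers lie right of 0 in siMYCN (10 of the 12 tested were called), while DCX and EZR fall left of 0 in siHAND2, and ST8SIA2 and ST8SIA4 each passed the test in 1 knockdown.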

How the data were processed

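RNA of 9 LAN5 libraries was measured by sequencing. The authors deposited 1 table of CPM values for 25084 genes, to each of which 0.0001 had been added. Reads were aligned with STAR 2.5.1, and Partek was used, per the submitters' processing notes. These notes name hg19 and GRCh37, but the gene starts in the table matched RefSeq GRCh38 within 5 kb for 91.4% of the symbols found, against 5.63% for GRCh37, so positions are GRCh38. How reads were counted, with or without strand, is not given in the sources used here. Low CPM values fell on steps of 1 read, but only 79.5% to 81.0% of values below 20 steps were whole (within 0.02 of a step), so no count model was used.

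Tests used log2(CPM + 1) and the 14495 genes at 1 CPM or more in 3 libraries or more, fitted to all 9 libraries in 1 model with limma 3.58.1 in R 4.3.3 (eBayes with an intensity trend), two-sided, with Benjamini-Hochberg adjustment over all genes tested and a threshold of 0.05. The code was tested on simulated data. The 9 genes, the partner and marker lists and the tests were chosen with earlier results of these data known. In each partner list and comparison against siCTR, the 2 largest called rises and the 2 largest called falls are named; SPTAN1, SPTBN1 and SPTBN4 were added after their values were seen, and some genes of the lists are counted but not reported by name here. The 3 nearest profiles by Pearson r are given for genes with a log2 fold change of at least 0.5 in any comparison. Alternatives were 2 other pseudocounts, 2 other filters, 2 rescalings, a fit of 2 groups, no trend, replicate number as a block and each library left out; for partner genes they were added after seeing the data. Transcript lengths came from GENCODE v44 on GRCh37.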

Additional observations from a re-analysis of the deposited data

How the results depend on the processing

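Of the 27 results for single adhesion genes (9 genes in 3 comparisons), 22 kept their direction and their side of the threshold in every refit, which covered 9 alternatives and 9 omissions of 1 library; with the filter of 5 CPM, CHL1 was not tested. The exceptions were NCAM2 and CNTN1 in siMYCN, given above, and 3 values that changed sign and did not pass the threshold. Over omissions of 1 library, NCAM1 in siHAND2 ranged from -0.0635 to 0.00841, with 0.00588 without siCTR replicate 1 and 0.00841 without siHAND2 replicate 2. CNTN2 in siHAND2 ranged from -0.0508 to 0.0505 (without siHAND2 replicate 3), with 0.0162 without siCTR replicate 1. CHL1 in siHAND2 against siMYCN ranged from -0.0571 (without siMYCN replicate 2) to 0.228. Among named partner genes, ROBO2 in siMYCN ranged from -0.137 to 0.0639 (without siMYCN replicate 1) and CNTNAP1 in siHAND2 against siMYCN from -0.0901 to 0.0126 (without siHAND2 replicate 3). ST8SIA2 in siHAND2 ranged from -0.0178 (without siCTR replicate 1) to 0.0711, and was -0.000559 with median ratios and -0.00829 with quantile normalization. The cause of these changes was not tested.

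Counts of adhesion genes called were 7 to 9 in siMYCN, 5 to 6 in siHAND2 and 8 in the direct comparison over the alternatives. Replicate numbers are shared between groups, and deviations of same-numbered libraries correlated by -0.04 to 0.31 and over 0.1 in 6 of 9 pairs. Deviations of libraries with different numbers correlated by -0.30 to 0.14. The labels do not say whether equal numbers mark a shared preparation, so the main model held no replicate term. With replicate number as a block, the count of all genes called was 5895 in siMYCN (5209 without), 5089 in siHAND2 (4339) and 4689 between the knockdowns (3892), and CNTN1 in siMYCN passed the threshold (adjusted p = 0.0316).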
